A study of Homo sapiens with 6 samples.

Results

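Epithelial cells hold on to each other through adherens junctions, built on E-cadherin (CDH1) and P-cadherin (CDH3), and seal the space between them with tight junctions, built on claudins and occludin (OCLN). In epithelial to mesenchymal transition (EMT), transcription factors such as ZEB1, SNAI1 and SNAI2 repress these genes while vimentin (VIM), the intermediate filament protein of mesenchymal cells, comes up, and basal-like breast cancer lines often express vimentin beside their epithelial genes. Among 10487 genes measured in MDAMB468 cells with and without IGFBP2 overexpression, a set of 10 genes of this kind was followed: CDH1, CDH3, EPCAM, CLDN1, CLDN4, CLDN7, OCLN, VIM, ZEB1 and SNAI2. Of these, 8 were in the table, and ZEB1 and SNAI2 were not.

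MDAMB468 (MDA-MB-468) is an established human line of triple negative breast carcinoma. The labels give 3 biological replicates with genotype WT, called control here, and 3 with genotype IGFBP2 overexpression, and all 6 with no drug treatment. The overexpressing cells are a stable, sorted population in which a catalytically inactive Cas9 joined to transcriptional activators (written VPH or VHP by the study) is brought to IGFBP2 by a guide RNA. Whether the control cells carry the activator was not given in the sources used here, so an effect of the activator and one of IGFBP2 cannot be told apart. The libraries were QuantSeq 3′ mRNA libraries, in which reads come from the 3′ end of each transcript, and values are in CPM (reads of a gene per library size, which the authors adjusted by a further scaling factor). Values are listed in the order of replicates 1, 2 and 3. They are not divided by transcript length, and no gene is ranked against another by its level here.

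The genes in the table held 2497353 to 4579587 reads per library, with a minimum of 1 read for any gene in any library. IGFBP2, which binds and carries insulin-like growth factors, stood at 93.5, 87.3 and 136 CPM in the controls. The overexpression libraries held 566, 1176 and 498 CPM, all above every control (log2 difference 2.73, limma adjusted p = 0.0148). The 7 keratins used to check the cell type were all present (KRT18, for example, at 510 to 794 CPM), ESR1 and PGR were not in the table, and of 7 fibroblast, 4 endothelial and 4 leukocyte markers, COL1A1 alone was listed, at 9.36 to 27.5 CPM. With limma on the log2(CPM + 1) values, 0.629% of all genes passed an adjusted p of 0.05 (Benjamini-Hochberg over all genes), 13.0% had an unadjusted p under 0.05, and in 18.0% the 3 libraries of one group lay wholly above or below those of the other.

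Against this background, 0 of the 8 genes passed the adjusted threshold, in either direction. At an unadjusted p under 0.05 the number was 3, with VIM higher and CLDN1 and CLDN4 lower in IGFBP2 overexpression cells, and with limma voom on recovered reads the adjusted count was also 0. The groups did not overlap in 2 of the 8, CLDN1 and CLDN4. Of the 8 log2 differences, 4 were above 0 and 4 below, with a median of -0.04, where the median over all genes was 9.82e-05. Within the controls, replicate 3 was the lowest for 4 of the 8 genes and the highest for 4. It also held the fewest reads of any library. The differences of the 8 genes share this library, so they are not separate results. In these bulk libraries, fewer cells that express a gene and less of its RNA per cell cannot be told apart.

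**Figure D1:**
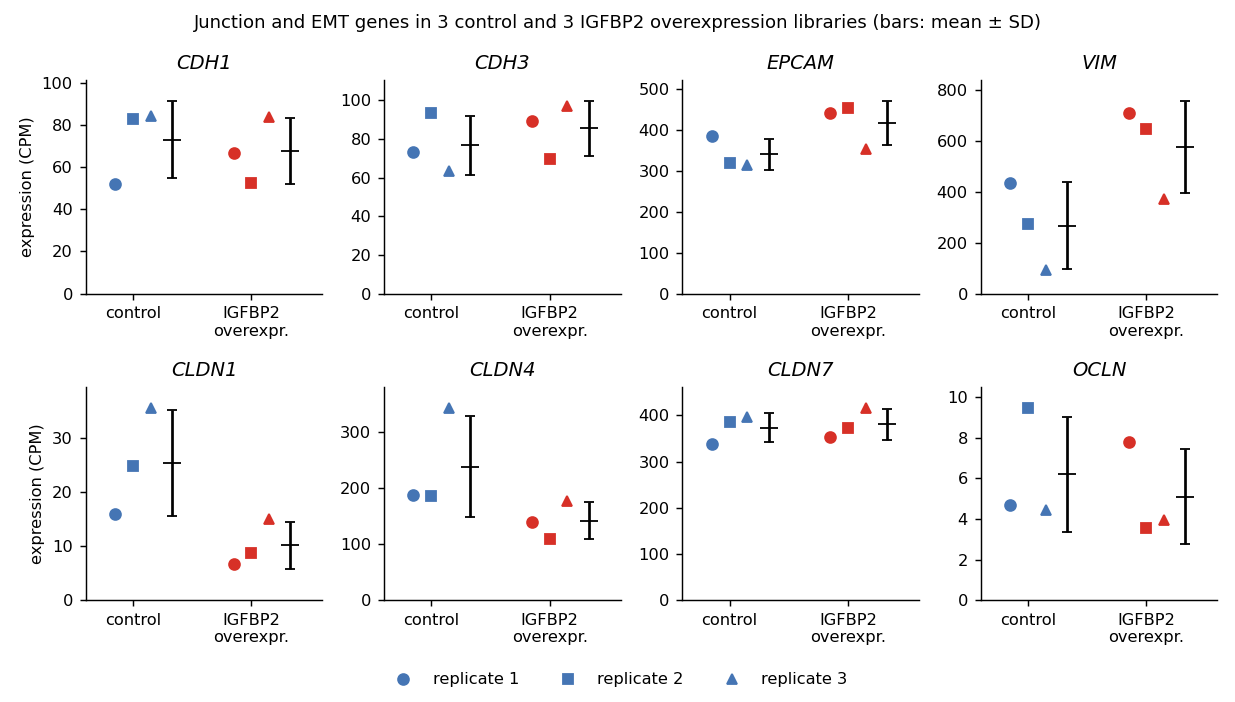
Expression in CPM (vertical axes, each from 0) of the 8 genes in control (blue) and IGFBP2 overexpression (red) libraries, with marker shape for the replicate number and black bars for mean ± SD. The 3 red points lie below all blue points for CLDN1 and CLDN4 and overlap them for the other 6 genes, and VIM ranges from 92.6 to 435 CPM among the controls alone.

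The promoters of the 3 genes that stood furthest apart are shown first, to let the reader see what lies in front of them. ZEB and SNAI proteins bind an E-box whose core reads CACCTG, or in reverse complement CAGGTG, a motif best known from the front of E-cadherin, and both strands were searched in RefSeq windows from 250 bases before to 50 after each start on GRCh38. Of the 10 genes, 6 were matched to 14 windows (CLDN1, CLDN4, CLDN7, OCLN, VIM and ZEB1), CDH1, CDH3 and EPCAM were not matched, and SNAI2 was not read. The windows of CLDN4, CLDN7 and OCLN lie inside the GENCODE gene spans given below, so their RefSeq starts differ from those gene starts. The 250 bases before the start are given 5′ to 3′ on the gene's strand, with the GC box (GGGCGG, or CCGCCC on the other strand) in capitals.
CLDN1, chr3:190322447-190322696, minus strand: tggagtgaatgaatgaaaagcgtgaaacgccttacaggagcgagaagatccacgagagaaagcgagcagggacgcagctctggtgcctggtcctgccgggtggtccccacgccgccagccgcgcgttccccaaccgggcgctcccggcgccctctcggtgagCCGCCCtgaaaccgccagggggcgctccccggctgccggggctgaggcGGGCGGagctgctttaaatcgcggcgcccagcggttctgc
CLDN4, chr7:73830746-73830995, plus strand: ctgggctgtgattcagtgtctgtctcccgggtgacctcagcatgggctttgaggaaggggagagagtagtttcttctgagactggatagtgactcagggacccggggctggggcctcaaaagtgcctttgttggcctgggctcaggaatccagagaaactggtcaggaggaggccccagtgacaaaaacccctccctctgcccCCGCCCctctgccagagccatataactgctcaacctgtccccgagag
VIM, chr10:17227991-17228240, plus strand: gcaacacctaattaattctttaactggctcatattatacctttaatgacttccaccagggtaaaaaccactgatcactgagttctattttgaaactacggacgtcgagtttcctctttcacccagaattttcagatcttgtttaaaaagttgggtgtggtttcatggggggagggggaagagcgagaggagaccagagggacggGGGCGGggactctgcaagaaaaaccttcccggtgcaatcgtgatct

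The CACCTG core was in 0 of these 3 windows, and the GC box occurred 2 times before CLDN1 and 1 time each before CLDN4 and VIM. Over all 35116 promoter windows, 20.6% held the E-box core and 45.0% the GC box. The E-box core was in windows of CLDN7 and OCLN, whose groups overlapped as did those of VIM, and in 2 of the 7 windows of ZEB1. One of the 2 CLDN7 windows held it 5 times, and a stretch of 25 bases with 2 of them, in capitals, ends at the start itself.
CLDN7, chr17:7262478-7262502, minus strand: tactCAGGTGcgcccCACCTGtccg
OCLN, chr5:69492510-69492523, plus strand: gtttCAGGTGaatt

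A match of letters is a description and not a bound site, and its absence from a window says nothing of the factor.

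CLDN1 (ENSG00000163347, chr3:190305707-190322446 in GENCODE 44, minus strand) encodes claudin-1, a sealing claudin needed for the barrier of the skin. It measured 16.0, 24.8 and 35.6 CPM in controls and 6.63, 8.72 and 15.1 CPM in overexpression cells. All overexpression libraries were below all controls, but the gap between the groups was narrow, 15.1 against 16.0 CPM, and the highest and lowest library of a group were 2.23-fold apart in controls and 2.28-fold in overexpression cells. The means were 25.4 ± 9.82 and 10.2 ± 4.42 CPM (SD, n = 3 each), 2.51-fold apart. The log2 difference was -1.25 (standard error 0.34, 95% interval -2.03 to -0.47, limma adjusted p = 0.185), and the exact two-sided permutation test gave p = 0.1, the smallest that 3 against 3 allows. The values rest on 17 to 89 reads per library. Between its alternatives the limma adjusted p ranged from 0.0509 to 0.450.

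CLDN4 (ENSG00000189143, chr7:73799542-73832690, plus strand) encodes claudin-4, which is abundant in many carcinomas. Controls measured 186, 185 and 342 CPM and overexpression cells 139, 110 and 176 CPM. Control replicate 3 stood far above the other 2 controls, which were only just above overexpression replicate 3. Mean expression was 238 ± 90.3 CPM in controls and 142 ± 33.2 CPM in overexpression cells (SD, n = 3 each), 1.68-fold apart. The log2 difference was -0.71 (standard error 0.29, 95% interval -1.36 to -0.05, limma adjusted p = 0.340, exact two-sided permutation p = 0.1). Without control replicate 3 it was -0.41.

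CLDN7 (ENSG00000181885, chr17:7259903-7263983, minus strand), a claudin of epithelial lateral membranes that forms complexes with EpCAM, measured 339, 385 and 397 CPM in controls and 352, 372 and 416 CPM in overexpression cells. These libraries were the most even of the 8 genes, no more than 1.18-fold apart within a group, and the 2 groups overlapped throughout. The log2 difference was 0.02 (standard error 0.18, limma adjusted p = 0.973). Its 95% interval corresponds to 0.768 to 1.35 times the control level, which bounds the change these libraries allow. ELP5, a gene on the opposite strand that overlaps CLDN7, is also in the table, and whether counting used strand was not given in the sources used here.

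Because a ratio of 2 genes within one library does not depend on scaling between libraries, the claudins were also set against CLDN7, a choice made after their values were seen and given with no test. CLDN1 over CLDN7 was 0.0472, 0.0644 and 0.0896 in controls and 0.0188, 0.0234 and 0.0363 in overexpression cells. CLDN4 over CLDN7 was 0.550, 0.481 and 0.862 in controls and 0.395, 0.295 and 0.423 in overexpression cells. In both ratios every overexpression library was below every control, as for the CPM values. CLDN7 varied little between libraries, so this largely follows from its choice and is no separate result.

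The table held 8 claudins in all, and 6 of them had a log2 difference below 0. The groups did not overlap for 4, all lower in overexpression cells, which were CLDN1, CLDN3, CLDN4 and CLDN8, where 18.0% of all genes did not overlap in either direction. Of the 8, 0 passed the adjusted threshold and the same 4 had an unadjusted p under 0.05, against 13.0% of all genes. These counts include CLDN1 and CLDN4, the members already reported above. The claudins were counted after the values were seen, so the counts are a description and no independent result. CLDN3 encodes a sealing claudin and lies 29271 bases from CLDN4 on chromosome 7, by the GENCODE gene spans. That distance is not measured to the RefSeq start of CLDN4 whose bases are shown above. It measured 30.4, 33.1 and 49.7 CPM in controls and 25.3, 19.7 and 28.9 CPM in overexpression cells, with a log2 difference of -0.58 (limma adjusted p = 0.357), or -0.37 without control replicate 3. CLDN8, whose product takes part in paracellular ion selectivity in kidney and gut, measured 26.6, 11.7 and 16.6 CPM in controls and 9.36, 8.72 and 4.60 CPM in overexpression cells (log2 difference -1.15, limma adjusted p = 0.203). For CLDN1, CLDN3 and CLDN4 the highest library was control replicate 3, and for CLDN8 it was control replicate 1. CLDN10, CLDN15 and CLDN23, the remaining claudins, had log2 differences of -0.15, 0.08 and -0.17 and overlapping groups.

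OCLN (ENSG00000197822, chr5:69492292-69558104, plus strand) encodes occludin, a tight junction protein that spans the membrane several times. It was the most thinly covered of the 8, with 11 to 34 reads per library, and measured 4.66, 9.46 and 4.45 CPM in controls and 7.80, 3.55 and 3.94 CPM in overexpression cells. Control replicate 2 and overexpression replicate 1 were the highest of their groups and the groups overlapped, and counting error alone gives control replicate 3 a range of 2.22 to 7.96 CPM (exact Poisson, 95%). Its log2 difference was -0.24 (standard error 0.33, 95% interval -0.98 to 0.51, limma adjusted p = 0.827). OCLN has a pseudogene copy, OCLNP1, and reads shared between them were not examined.

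CDH1 (ENSG00000039068, chr16:68737292-68835537, plus strand) encodes E-cadherin, the defining adhesion protein of epithelia. Its level was 51.9, 82.9 and 84.1 CPM in controls and 66.7, 52.6 and 83.4 CPM in overexpression cells. One low library in each group, control replicate 1 and overexpression replicate 2, stood at almost the same value, and the high libraries matched as closely. The means of 73.0 ± 18.2 and 67.6 ± 15.4 CPM (SD, n = 3 each) differed by less than either SD. The log2 difference was -0.10 (standard error 0.26, limma adjusted p = 0.909, exact two-sided permutation p = 0.9), and the 95% interval runs from 0.622 to 1.40 times the control level.

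CDH3 (ENSG00000062038, chr16:68636189-68727468, plus strand) encodes P-cadherin, the cadherin of basal epithelial cells, and ends 9823 bases before CDH1 begins on the same strand. It measured 73.5, 93.5 and 63.5 CPM in controls and 89.3, 69.7 and 97.2 CPM in overexpression cells, with a log2 difference of 0.16 (standard error 0.22, 95% interval -0.34 to 0.65, limma adjusted p = 0.827). The ratio of CDH1 to CDH3 within a library was 0.707, 0.887 and 1.32 in controls and 0.747, 0.755 and 0.858 in overexpression cells. The 3 overexpression libraries therefore fell inside the range of the controls, and both neighbouring cadherins overlapped between groups. CDH24 was the other gene listed under a CDH symbol, at 2.89, 3.62 and 4.45 CPM in controls and 6.24, 7.75 and 4.27 CPM in overexpression cells. Its groups overlapped and its unadjusted p was under 0.05 (log2 difference 0.59, limma adjusted p = 0.337). All its controls were under 5 CPM, so CDH24 is in the table through the group where it is high. CDH2, the N-cadherin of mesenchymal cells, was not in the table.

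EPCAM (ENSG00000119888, chr2:47345158-47387601, plus strand) encodes the epithelial cell adhesion molecule used as a surface marker of carcinoma cells. It measured 384, 320 and 314 CPM in controls and 441, 452 and 353 CPM in overexpression cells. Overexpression replicate 3 lay between the controls, and the other 2 above them. Its log2 difference was 0.29 (standard error 0.19, 95% interval -0.15 to 0.73, limma adjusted p = 0.577).

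VIM (ENSG00000026025, chr10:17228241-17237593, plus strand) had the largest log2 difference of the 8 in absolute size. Controls measured 435, 274 and 92.6 CPM, and overexpression cells 712, 646 and 371 CPM. The controls were spread 4.70-fold from lowest to highest, and control replicate 1 was above overexpression replicate 3, so the groups overlapped. The means were 267 ± 171 and 576 ± 181 CPM (SD, n = 3 each), 2.16-fold apart. The log2 difference was 1.31 (standard error 0.51, 95% interval 0.16 to 2.47, limma adjusted p = 0.320, exact two-sided permutation p = 0.2). It was 0.68 without control replicate 3 and 1.79 without control replicate 1.

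The spread of VIM within the controls was large against other genes, on 1961, 985 and 229 reads. Its SD over the 3 control log2 values was 1.14, above that of 99.1% of all genes, while CLDN7 with 0.12 was above 14.3% and EPCAM with 0.16 above 23.0%. In the overexpression libraries the SD of VIM was 0.51, above that of 91.4% of genes. VIM-AS1, on the opposite strand, overlaps VIM and was not in the table. The ratio of VIM to CDH1 within a library was 8.38, 3.31 and 1.10 in controls and 10.7, 12.3 and 4.44 in overexpression cells, and here too overexpression replicate 3 lay between the controls.

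**Figure D2:**
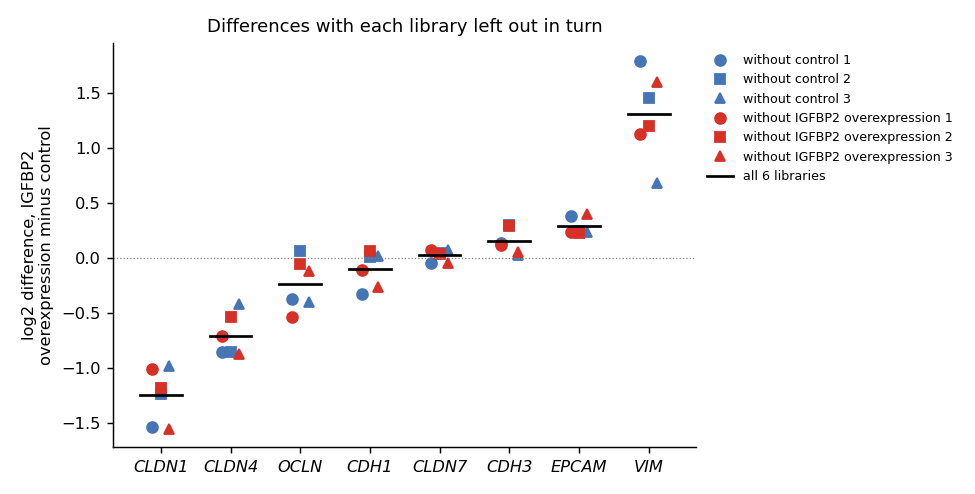
Log2 difference (vertical axis, IGFBP2 overexpression minus control) of the 8 genes with all 6 libraries (black line) and with each library left out in turn (blue for controls, red for overexpression, marker shape for the replicate number). VIM spans 0.68 to 1.79 and CLDN4 -0.88 to -0.41 without crossing 0, and CDH1, CLDN7 and OCLN take both signs.

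By library values, PADI3 and LOXL2 were among the 3 genes nearest to VIM. Likeness was the root mean square distance between log2 values centred on each gene's own mean over the 6 libraries, which was 0.25 and 0.27 for these 2 and had a median of 1.01 over all other genes. LOXL2, a lysyl oxidase that acts on collagen and other substrates, measured 84.1, 63.7 and 27.5 CPM in controls and 177, 135 and 122 CPM in overexpression cells. PADI3, a peptidylarginine deiminase, measured 5.99, 3.89 and 1.21 CPM in controls and 8.97, 11.3 and 4.60 CPM in overexpression cells. Its mean is over 5 CPM in the overexpression cells only, so PADI3 is in the table through the group where it is high. In LOXL2 and PADI3, as in VIM, control replicate 3 was the lowest of the 6 libraries. The choice of these genes by likeness to VIM fixes this, so it is no separate result. Neither gene passed the adjusted threshold with limma.

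**Figure D3:**
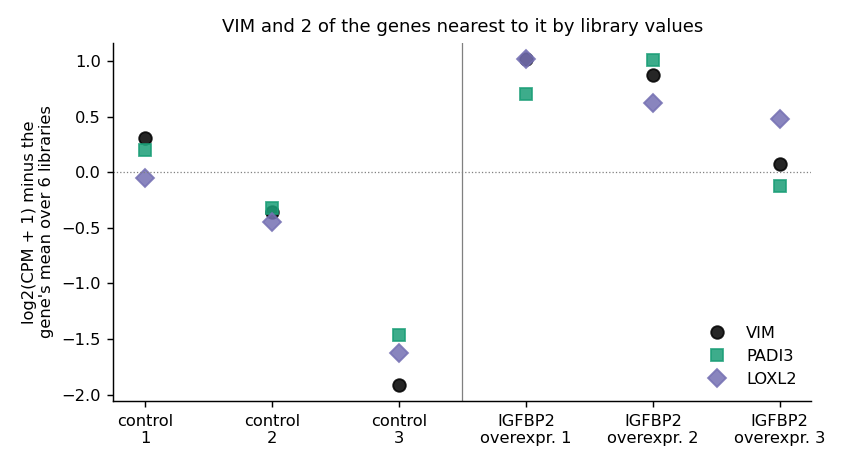
Log2(CPM + 1) of VIM, PADI3 and LOXL2 minus each gene's mean (vertical axis) in the 6 libraries (horizontal axis, controls left, IGFBP2 overexpression right). All 3 genes are lowest in control replicate 3, where the centred value of VIM is -1.91. For PADI3 and LOXL2 this follows from their choice by likeness to VIM.

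The 2 repressors, ZEB1 (chr10:31318495-31529814) and SNAI2 (chr8:48917598-48921740), have no value here. Every gene in the table averages above 5 CPM in at least one group, the lowest such average being 5.02 CPM, the limit the study set for its own testing. Which step left these 2 out was not examined. No level or limit is given for them. ZEB2 and SNAI1 were not in the table either.

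The partners of these proteins were read from 4 further lists. Of 49 junction partners (catenins, nectins, other claudins, plaque and desmosome genes), 39 were in the table and 0 passed the adjusted threshold, with 8 at an unadjusted p under 0.05 (20.5%, against 13.0% of all genes), 7 of them lower in overexpression cells. Of the 39 log2 differences 17 were above 0 and 22 below, with a median of -0.12. Among the catenins, the groups overlapped for CTNNA1, CTNND1 and JUP. They did not for CTNNB1 (beta-catenin), at 128, 157 and 171 CPM in controls and 173, 187 and 175 CPM in overexpression cells. All its overexpression libraries were above all controls, by a small margin, and the log2 difference was 0.24 (standard error 0.19, limma adjusted p = 0.650). CTNNA1, CTNND1 and JUP had log2 differences of -0.21, -0.26 and -0.14, and the tight junction plaque genes TJP1 and TJP3 had 0.02 and -0.45, with adjusted p-values (limma) of 0.461 to 0.982 over these 5 genes.

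The 3 junction partners of smallest p were EPPK1, CLDN8 and CGNL1. EPPK1, which encodes the keratin-binding epiplakin, measured 29.5, 36.7 and 48.5 CPM in controls and 15.2, 16.5 and 26.9 CPM in overexpression cells (log2 difference -0.95, standard error 0.27, limma adjusted p = 0.197). Without control replicate 3 the log2 difference of EPPK1 was -0.77. CGNL1, which encodes the junction protein paracingulin, measured 7.55, 5.84 and 17.0 CPM in controls and 3.90, 4.84 and 5.26 CPM in overexpression cells (log2 difference -0.85, limma adjusted p = 0.328, or -0.44 without control replicate 3). Its mean is over 5 CPM in the controls only, so it is in the table through the group where it is high. CGNL1 is among the 7 lower junction partners counted above, and that count rests in part on it. In EPPK1 and CGNL1, as in CLDN1 and CLDN4, the groups did not overlap and control replicate 3 was the highest library. Their differences share this library, so they are not separate results.

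Of 35 genes that mark or govern the epithelial state, 30 were in the table and 0 passed the adjusted threshold, with 5 at an unadjusted p under 0.05 (16.7%, against 13.0% of all genes), all lower. Of the 30 log2 differences 6 were above 0 and 24 below, with a median of -0.16. The 3 of smallest p, OVOL1, ELF5 and EHF, are among the 5 at an unadjusted p under 0.05. They are also the 3 whose mean is over 5 CPM in the controls only. They could enter the table only by being higher there, so their direction is no independent result and their values are a description. The count of 5, its share, its common direction and the count of 24 below 0 rest in part on them. OVOL1, a transcription factor that represses EMT factors, measured 12.9, 9.18 and 17.4 CPM in controls and 3.90, 4.20 and 5.26 CPM in overexpression cells, with no overlap and a log2 difference of -1.34 (standard error 0.24, limma adjusted p = 0.0541). ELF5, a factor of luminal progenitor cells in the breast, measured 5.55, 4.45 and 11.7 CPM in controls and 1.17, 1.29 and 1.97 CPM in overexpression cells (log2 difference -1.65, limma adjusted p = 0.0669), where the latter rest on 3, 4 and 6 reads. EHF, an epithelial ETS factor, measured 10.9, 7.23 and 15.8 CPM in controls and 7.02, 1.61 and 3.28 CPM in overexpression cells (log2 difference -1.40, limma adjusted p = 0.204), with 5 to 49 reads per library. The splicing regulator ESRP1 and the transcription factors GRHL2 and OVOL2, also of the epithelial programme, had log2 differences of -0.12, -0.05 and 0.21, with limma adjusted p-values of 0.845 to 0.937.

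Of 20 further EMT transcription factors, 11 were in the table and 0 passed the adjusted threshold, with 4 at an unadjusted p under 0.05 (36.4%, against 13.0% of all genes), all higher in overexpression cells. Of the 11 log2 differences 6 were above 0 and 5 below, with a median of 0.10. TWIST2 measured 33.5, 33.7 and 22.6 CPM in controls and 68.2, 68.4 and 45.0 CPM in overexpression cells, 2.02-fold apart in the means (log2 difference 0.99, standard error 0.25, limma adjusted p = 0.144). All its overexpression libraries were above all controls, and without control replicate 3 its log2 difference was 0.81. HMGA2, an architectural chromatin protein, and TWIST1 overlapped between groups, at 6.22, 8.62 and 6.47 against 12.5, 8.07 and 17.7 CPM and at 1.33, 3.62 and 3.23 against 6.63, 3.23 and 5.91 CPM. TWIST1 rests on 6 to 18 reads per library, and its mean is over 5 CPM in the overexpression cells only, so it is in the table through the group where it is high. The 4 at an unadjusted p under 0.05 include TWIST1, so their count and common direction rest in part on it.

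Of 44 mesenchymal genes, 14 were in the table, 0 passed the adjusted threshold and 4 had an unadjusted p under 0.05 (28.6%, against 13.0% of all genes), all higher. Of the 14 log2 differences 8 were above 0 and 6 below, from -0.54 to 1.42 with a median of 0.24. The groups did not overlap for 3 higher and 1 lower, where 18.0% of all genes did not overlap in either direction. LOXL2 had the smallest p (log2 difference 1.42, standard error 0.37, limma adjusted p = 0.167) and did not overlap between groups. Without control replicate 3 the log2 difference of LOXL2 was 0.96. MSN, the membrane-actin linker moesin, measured 220, 189 and 205 CPM in controls and 304, 340 and 279 CPM in overexpression cells (log2 difference 0.58, limma adjusted p = 0.231), and TIMP1, an inhibitor of metalloproteases, 28.9, 23.9 and 28.3 against 38.2, 38.1 and 48.6 CPM (log2 difference 0.60, limma adjusted p = 0.239). MSN and TIMP1 had even controls, 1.16-fold and 1.21-fold from lowest to highest, unlike VIM and LOXL2.

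**Figure D4:**
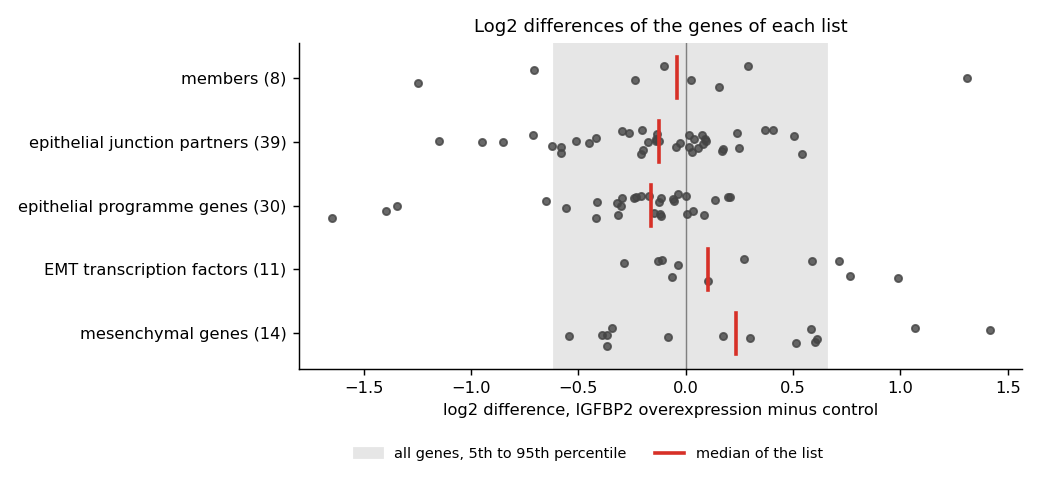
Log2 differences (horizontal axis, IGFBP2 overexpression minus control) of the genes of each list, 1 point a gene, with the list's median in red and the 5th to 95th percentile of all genes, -0.61 to 0.66, in grey. Medians lie between -0.16 and 0.24, and CLDN1, CLDN4 and VIM are the members outside the grey band.

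**Figure D5:**
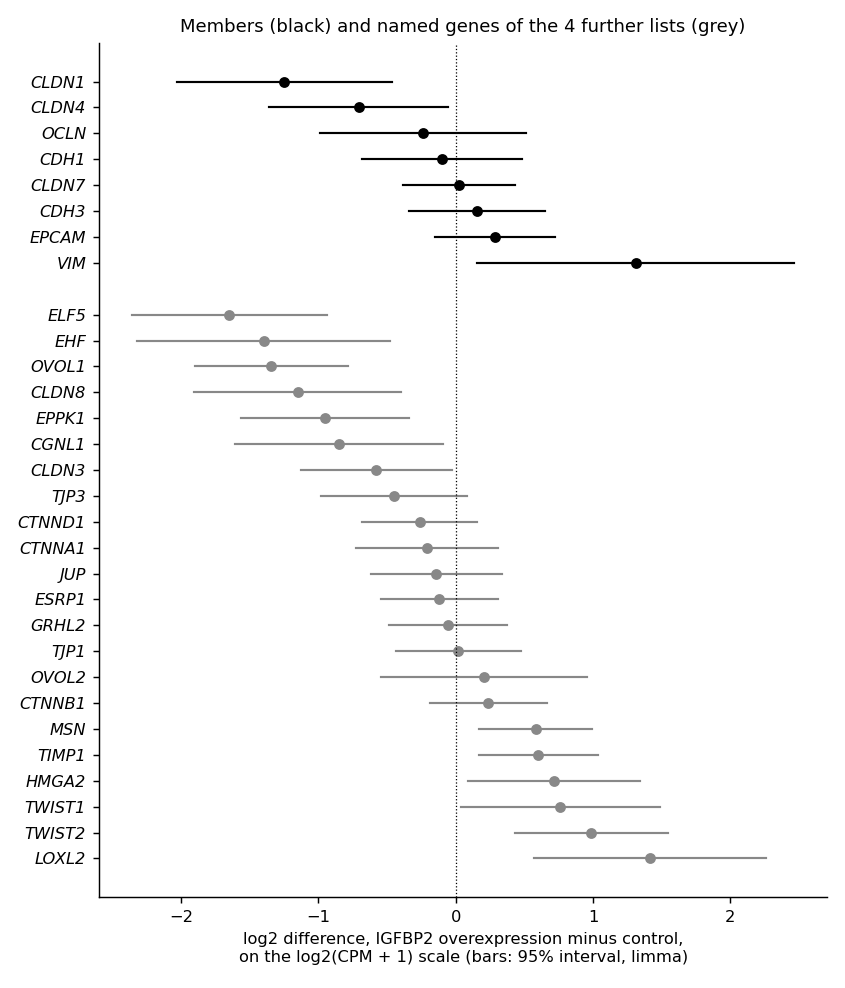
Log2 difference with its 95% limma interval (horizontal axis) for the 8 genes (black) and the named genes of the further lists (grey), sorted within each set. Intervals exclude 0 for VIM, CLDN1 and CLDN4 among the 8, before any adjustment for the 10487 genes tested.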

How the data were processed

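QuantSeq 3′ libraries of 3 control and 3 IGFBP2 overexpression replicates were compared. The authors used bbduk for trimming, STAR for alignment to hg38, htseq-count (HTSeq 0.9.1 per the labels) for counting and edgeR for scaling, and deposited log2(CPM + 1) values. They tested genes averaging above 5 CPM in a condition, and all deposited genes meet that limit. In each library 100% of values were whole multiples of a single read (within 0.01 reads), so reads were recovered. GENCODE 44 supplied positions, and symbols were found for 10462 of 10487 identifiers.

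The deposited log2 values of all genes were fitted with limma 3.58.1 (R 4.3.3), with condition as the only term and no mean-variance trend, and adjusted by Benjamini-Hochberg at 0.05. Exact permutation tests used the 6 libraries. Alternatives covered scaling, pseudocount, filter, variance model, replicate block and left-out libraries. A planned comparison of protein sequences was not made here.

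The genes and lists were chosen with earlier results of these data known, as was the fit without the trend. By rule, the text names the 8 members, IGFBP2, preset partners and paralogs, the 3 genes of smallest p in each list (none passed the threshold) and the 3 genes nearest to the member of largest difference, of which some items are not reported here. The GC box search and the family counts were added after the values were seen. The replicates are described as biological, and counting intervals cover counting error only. The study's own fold changes and p-values were not used.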

Additional observations from a re-analysis of the deposited data

How the results depend on the processing

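The 8 genes were recomputed under 14 alternatives each (13 for OCLN, which an average CPM over 10 removes), giving 111 values. None passed an adjusted p of 0.05 (limma), 105 kept their direction, and the other 6 changed sign with one library left out, where CDH1 ranged from -0.33 to 0.064, CLDN7 from -0.044 to 0.077 and OCLN from -0.53 to 0.069. CLDN1 ranged from -1.55 to -0.98, CLDN4 from -0.88 to -0.41, VIM from 0.68 to 1.79, CDH3 from 0.03 to 0.30 and EPCAM from 0.23 to 0.40, and control replicate 3 gave the values of CLDN1, CLDN4 and VIM nearest to 0. Of the named partners, TJP1 ranged from -0.10 to 0.17, GRHL2 from -0.14 to 0.042 and OVOL2 from -0.11 to 0.54 with one library left out. HMGA2 was 0.46 without overexpression replicate 3 (0.71 with all), TWIST1 0.46 without control replicate 1 (0.76), and at a pseudocount of 5 ELF5, EHF and TWIST1 were -0.88, -0.87 and 0.41.

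Of the epithelial programme genes, 0 in the fit reported, 1 passed at a pseudocount of 5 and at an average CPM over 10 (OVOL1 both times), and 0 to 1 with one library left out (OVOL1 without control replicate 2). OVOL1 averaged 13.1 CPM in controls and 4.45 CPM in overexpression cells, so it meets either CPM filter through the controls only. Its passing is no independent result. TWIST2 passed with the mean-variance trend, which gave 1 EMT transcription factor, and LOXL2 with the trend and with limma voom, which gave 1 mesenchymal gene each. The cause was not tested. Over all genes the count of 66 became 37 and 129 at pseudocounts of 0.1 and 5, 160 with the trend, 141 with limma voom, and 12 to 79 with one library left out, where control replicate 3 and overexpression replicates 1 and 2 gave 17, 12 and 13.

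The pairing check gave correlations of 0.17, -0.064 and 0.084 between the deviations of libraries 1, 2 and 3 of both groups, not all over 0.1, and the replicate numbers were taken as names. With the replicate block, 0 of the 8 genes passed (CLDN1 adjusted p = 0.0509, VIM 0.113, limma), and 1 epithelial programme gene did, ELF5. ELF5 is in the table through the controls only, where it is high, so its passing is no independent result. No filter at all could not be run, since the deposited genes were already filtered.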

Other observations

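The table also held 4 protocadherins, a branch of the cadherin family with many members in the nervous system, named here after their values were seen. PCDH9 measured 32.2, 19.5 and 44.5 CPM in controls and 16.4, 19.0 and 13.8 CPM in overexpression cells (replicates 1, 2 and 3 in each), with no overlap between groups (log2 difference -0.86, limma adjusted p = 0.267). PCDH19 measured 30.2, 14.7 and 6.07 CPM in controls and 3.12, 7.75 and 6.24 CPM in overexpression cells, where the groups overlapped (log2 difference -1.24, limma adjusted p = 0.335). PCDH1 and PCDHB2 had log2 differences of 0.08 and -0.04. Of the 4, 0 passed the adjusted threshold and 2 had an unadjusted p under 0.05, where 13.0% of all genes did. The groups did not overlap for 1 of the 4, against 18.0% of all genes. The desmosomal cadherins DSC2, DSC3 and DSG2 had log2 differences of -0.04, -0.20 and 0.01, with overlapping groups.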
